A study of Mus musculus with 474 samples.

Results

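A set of 10 genes of the myeloid lineage was followed through the daughters of mouse haematopoietic stem cells (HSCs), the bone marrow cells from which all blood lineages arise. The members were listed by name, namely Prtn3, Ms4a3, Csf3r, Fcer1g, Tyrobp, Cd53, Cebpa, Cebpb, Spi1 and Irf8, and they are 10 of the 55450 genes in the count tables. All 10 were found by their Ensembl identifiers, 9 of them had a count in at least 1 cell, and Irf8 had none. All cells derived from wild type, male C57BL/6JRj mice of 12 to 19 weeks (bone marrow), and no treatment other than culture is named in the labels. Each HSC divided once in culture under time-lapse imaging, the daughters were picked singly, and their polyA RNA was read by Smart-seq2, a plate method that covers whole transcripts. Most cells formed divisions in which one daughter was recorded as having received more lysosomes ("high") and its sister fewer ("low"). The remaining 68 cells could not be joined into such a division and enter only detection, levels by experiment and correlations over cells. The cells came from 9 culture experiments, 5 sequenced in run 4 (experiments 69, 74, 75, 76 and 77) and 4 in run 5 (experiments 60, 68, 72 and 73). The 5 experiments of run 4 gave 12, 27, 33, 38 and 26 divisions in the order named, and the 4 of run 5 gave 20, 17, 11 and 19.

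Myeloid cells, that is granulocytes, monocytes and mast cells, are built from HSCs through progenitors in which a few transcription factors are raised. PU.1, the product of Spi1, and the C/EBP proteins bind the regulatory regions of many myeloid genes, including those of growth factor receptors and granule proteases. HSCs are known to carry low levels of transcripts of several lineages before any commitment, and lysosomes, the degradative organelles of the cell, can be split unequally when an HSC divides.

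The median cell had 846198 counts on genes, the shallowest 76735 and the deepest 2444858, and 5538 to 12066 genes were detected in a cell. Levels are given as CPM, counts scaled to 1000000 on genes in each cell. Most HSC markers were common, with a count of Mecom in 100% of cells, of Hlf and Kit in 99.8% each and of Procr in 85.4%. The least detected were Gfi1b in 72.996%, Vwf in 67.3% and Slamf1 in 28.7%, and Cd27 and Hoxb5 of the 16 markers, both of which lie inside other annotated genes, were at 0. The median marker had a count in 1.16% of cells for the lymphoid list, 0.211% for mast cells and basophils, 1.055% for macrophages and dendritic cells, 5.70% for the erythroid and 32.9% for the megakaryocyte list. In the lymphoid list Rag1 lies inside another annotated gene and Cd3e is overlapped over 43.7% of its body, and both were at 0. Gp1bb of the megakaryocyte list is overlapped over 92.9%, so the medians of these lists may be too low. Single markers were common in several lists, Car2 in 100% of cells, Pf4 in 69.6%, Cd74 in 49.4% and Cpa3 in 43.2%. In single cells of one picked population, a lower mean can come from fewer cells with the transcript or from less of it per cell, so both are given.

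The members lie on 8 chromosomes, and how the deposited tables counted overlapping genes bears on 4 of them. Irf8, the gene of a factor that directs monocyte and dendritic cell formation, lies at chr8:120736358-120756694 (GRCm38, plus strand), wholly inside the annotated gene Gm20388, which spans 4.43 megabases of the same strand. It had 0 counts in every cell, and all 1351 protein-coding genes whose whole body lies inside other genes were at 0 in every cell as well. That held for the 749 that lie inside genes of the opposite strand alone, whereas 22.8% of the 11728 protein-coding genes with no overlap were at 0 in every cell. Irf8 therefore carries no measurement in these tables, and its value says nothing about the cells. Cebpb, at chr2:167688915-167690418 on the plus strand, is overlapped by Tmem189 of the opposite strand over 60.4% of its body, Cebpa over 11.9% and Prtn3 over 1.83%. The same overlap bears on other myeloid genes, since 4 of the 7 genes at 0 in every cell among the members and the other myeloid lists (Irf8, Itgam, Lcp2 and Cyba) are overlapped by more than 99%.

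RefSeq promoter sequence (GRCm38.p6) was matched for 8 of the 10 members by symbol, and 250 bases upstream of the start were searched on both strands for 3 binding motifs. GAGGAA, the core bound by PU.1, occurred in 3 of the 8, Prtn3, Csf3r and Cd53, and in 23.3% of 32817 promoter windows of this length. The C/EBP motif TTNNGNAA occurred in those of Cd53 and Ms4a3 and in 36.8% of all windows, and the RUNX motif TGTGGT in that of Cd53 and in 14.04% of all windows. The sequences shown are those of the granule protease gene Prtn3, of Cd53 with all 3 motifs, of the receptor gene Csf3r, and of Fcer1g, whose levels were the most alike between sisters among the members and whose window held none of the 3. They run 5′ to 3′ on the strand of the gene, stop before any exon of the gene annotated within the window, and have the motif matches in capitals. For Csf3r 30 bases around the match are given, which lie within its first annotated exon. The Prtn3 window lies inside the annotated span of that gene (chr10:79874476-79883174), since the RefSeq start used lies downstream of the annotated one. Their positions are chr10:79879417-79879613 (plus strand) for Prtn3, chr3:106790150-106790399 (minus strand) for Cd53, chr4:126024561-126024590 (plus strand) for Csf3r and chr1:171234366-171234599 (minus strand) for Fcer1g.
Prtn3: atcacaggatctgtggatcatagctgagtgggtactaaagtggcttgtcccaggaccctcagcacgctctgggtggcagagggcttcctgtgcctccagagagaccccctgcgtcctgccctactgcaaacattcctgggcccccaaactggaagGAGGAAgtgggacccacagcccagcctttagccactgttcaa
Cd53: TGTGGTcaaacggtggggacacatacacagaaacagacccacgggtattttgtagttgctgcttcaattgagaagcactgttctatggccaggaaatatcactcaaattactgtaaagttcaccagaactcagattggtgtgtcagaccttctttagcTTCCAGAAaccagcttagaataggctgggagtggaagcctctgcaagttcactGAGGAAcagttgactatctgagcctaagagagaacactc
Csf3r: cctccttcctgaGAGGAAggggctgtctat
Fcer1g: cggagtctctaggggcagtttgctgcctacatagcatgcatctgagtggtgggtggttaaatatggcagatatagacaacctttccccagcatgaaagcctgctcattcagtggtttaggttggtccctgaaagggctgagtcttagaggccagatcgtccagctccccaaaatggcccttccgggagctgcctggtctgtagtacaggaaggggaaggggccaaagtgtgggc
A match is a description of these letters and not a site shown to be bound, and windows without one say nothing about the factor. The Prtn3 match starts 95 bases before the start, that of Csf3r 86 bases and that of Cd53 39 bases, with the C/EBP and RUNX matches of Cd53 at 92 and 250 bases.

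Among the transcription factors, Spi1 was present in nearly every cell, Cebpb in about as many cells as not, and Cebpa in very few. Spi1 (chr2:91082390-91115756, plus strand) had a count in 98.5% of cells (exact Clopper-Pearson 95% interval 96.98 to 99.4%), with a median of 101.4 CPM and a highest cell of 407.6 CPM; 7 cells lacked it. Cebpb, the C/EBP factor of stress granulopoiesis and macrophages, had a count in 54.9% of cells (interval 50.2 to 59.4%), with a median of 8.14 CPM where counted. Cebpa (chr7:35119293-35121928, plus strand), the factor needed for the step to granulocyte and monocyte progenitors, had a count in 16 cells (3.38%, interval 1.94 to 5.42%), with a median of 9.79 CPM in them and a highest cell of 48.3 CPM. Reads here carry no molecular identifiers. The intervals here and below treat cells as independent, which sisters and cells of the same culture are not, so they cover counting error only. Over experiments, detection ran from 16.7% to 92.9% for Cebpb and from 91.8% to 100% for Spi1.

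Of the surface receptors and adaptors, Cd53 and Fcer1g were common and variable, Csf3r was in about as many cells as not, and Tyrobp was rarer and low. Cd53 (chr3:106759921-106790149, minus strand), a tetraspanin of leukocyte membranes, had a count in 76.4% of cells (interval 72.3 to 80.1%), a median of 64.5 CPM where counted and a highest cell of 857 CPM. Fcer1g (chr1:171229572-171234365, minus strand), the signalling chain shared by several Fc receptors, had a count in 70.3% of cells (interval 65.9 to 74.3%) at a median of 29.2 CPM where counted. Csf3r (chr4:126024550-126044440, plus strand), the receptor for the granulocyte growth factor G-CSF, had a count in 50.2% of cells (interval 45.6 to 54.8%) at a median of 28.7 CPM where counted and up to 364.1 CPM. Tyrobp (chr7:30413760-30417585, plus strand), the adaptor DAP12 that carries an activation motif like that of Fcer1g, had a count in 36.9% of cells (interval 32.6 to 41.4%) at a median of 10.1 CPM where counted.

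Prtn3 was the common one of the granule-stage genes, and Ms4a3 was rare. Prtn3 (chr10:79874476-79883174, plus strand), the serine protease proteinase 3 of azurophil granules, had a count in 74.1% of cells (interval 69.9 to 77.9%), a median of 21.8 CPM where counted and a highest cell of 185.4 CPM. Ms4a3 (chr19:11629496-11640851, minus strand), a membrane protein of granulocyte and monocyte progenitors, had a count in 33 cells (6.96%, interval 4.84 to 9.64%), at a median of 6.43 CPM in them. Of the genes of granule proteins packed beside Prtn3, Elane had a count in 2 cells (0.422%, interval 0.0511 to 1.52%), and Mpo and Ctsg had none. For Ctsg, which no other gene overlaps, 3 counts as the limit of a count of 0 allow a share of cells with a count of up to 0.633%, while Mpo is overlapped over 49.5% of its body and gets no limit.

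Per kilobase of annotated exon, mean levels ran from 43.4 CPM for Cd53, 43.1 for Spi1 and 35.7 for Fcer1g through 12.9 for Prtn3, 8.65 for Tyrobp, 5.89 for Csf3r and 4.03 for Cebpb to 0.274 for Ms4a3 and 0.172 for Cebpa. Since wholly overlapped genes had no counts, the counted length of an overlapped gene can be shorter than its exons, so the values of Cebpb, Cebpa and Prtn3, and their detection, may be too low. Cd53 and Spi1 were level in the mean per length, but Cd53 was spread more widely over cells, with a coefficient of variation (SD over mean) of 1.36 against 0.655 for Spi1. A cell most often had counts of 5 of the 10 genes (31.01% of cells), 1 cell had none and 6 cells had 8. When cells were thinned to 200000 counts, which left out the 13 shallowest, detection fell to 41.9% for Cebpb and 27.1% for Tyrobp, while Spi1 was at 98.05%, Cd53 at 73.1%, Prtn3 at 66.8%, Fcer1g at 65.5% and Csf3r at 44.7%. Ms4a3 was then at 5.42% and Cebpa at 2.60%, so depth shifted the shares but left Cebpa and Ms4a3 rare.

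Of the 7 members detected in at least 20% of cells, Cebpb had the largest share of its variance between culture experiments. Its mean was 0.710 CPM in experiment 60, 0.767 in experiment 75 and 2.34 in experiment 74, against 4.25 in experiment 76, 5.73 in experiment 73, 10.7 in experiment 72, 11.7 in experiment 69, 12.6 in experiment 68 and 13.1 in experiment 77. Both low and high experiments occurred in each sequencing run, and the share of cells with a count ran from 16.7% to 92.9%. Experiment accounted for 37.4% of the variance of Cebpb in log2(CPM + 1), rank 12 of 11699 genes, where the median gene had 3.45%. Next came Cd53 at 12.6%, with experiment means from 21.7 CPM in experiment 60 through a median of 71.6 to 148.04 in experiment 68, then Spi1 at 8.67%, Csf3r at 7.40%, Fcer1g at 7.09%, Tyrobp at 3.90% and Prtn3 at 2.13%. The rare Ms4a3 ran from 0 to 2.10 CPM over experiments and Cebpa from 0 to 1.97 CPM. These shares are descriptions, and what differed between the cultures was not tested.

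**Figure D1:**
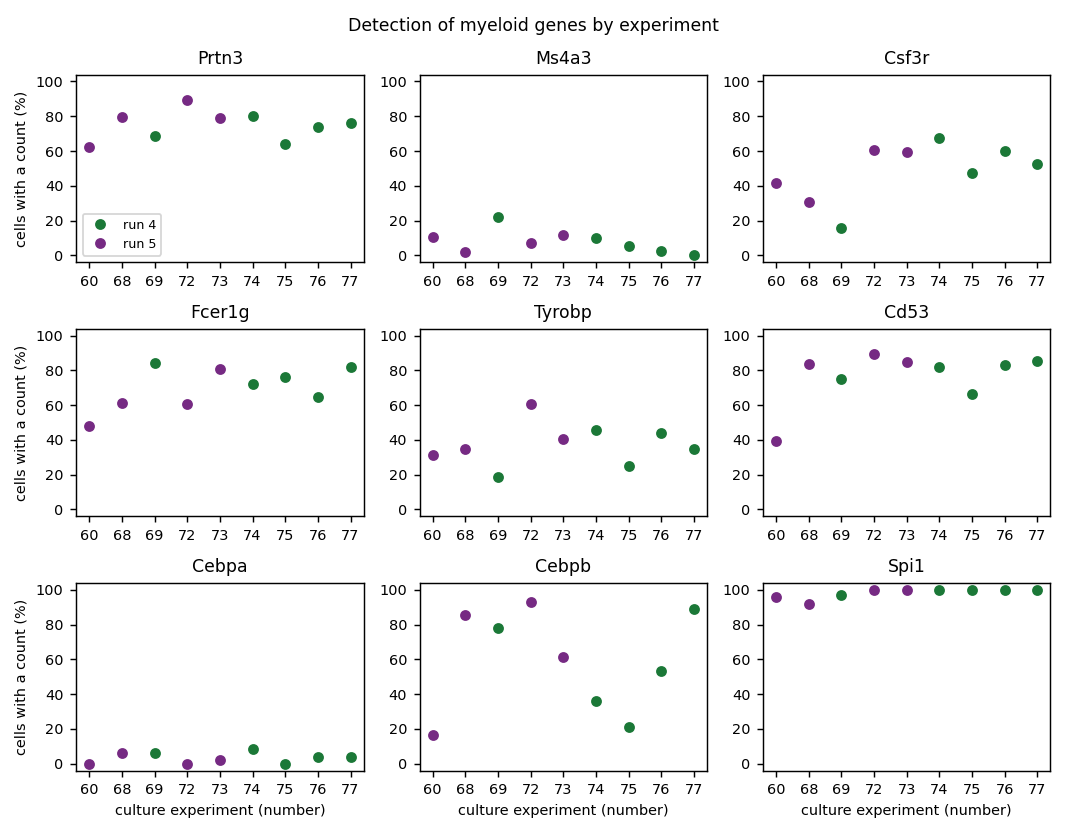
Share of cells with at least 1 count (percent, y axis) of 9 myeloid genes in each of 9 culture experiments (x axis), coloured by sequencing run; each point is 1 experiment, and Irf8, at 0 throughout, is left out. Cebpb moves between 16.7% and 92.9% with experiments of both runs at either end, while Spi1 stays at 91.8% or more.

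Fcer1g had experiment means of 16.3, 27.2 and 55.8 CPM (lowest, median, highest), Csf3r of 13.1, 20.2 and 32.01, Tyrobp of 1.92, 5.61 and 12.1, and Prtn3 of 14.8, 21.3 and 33.9. Experiment 69 stood at opposite ends for different members, lowest for Csf3r (15.6% of cells with a count) and Tyrobp and highest for Fcer1g and Ms4a3 (21.9% of cells). Spi1 was the one member whose experiment means did not overlap between runs, at 105.1 to 146.2 CPM in run 4 and 86.3 to 98.4 CPM in run 5. Such separation was found in 3.90% of 11699 genes. Of the variance of Spi1 6.79% lay between runs, against 1.19% for Cebpb and 0.345% for the median gene.

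Within a cell the counts of the members were at most weakly correlated with each other. Over all cells, with log2(CPM + 1) centred on experiment and plate, the 21 pairs among the 7 members detected in at least 20% of cells had Pearson correlations from -0.0674 to 0.206 with a median of 0.0640, and 18 were above 0. These weak values in sparse counts are descriptions and not findings. The highest pair was Csf3r and Tyrobp (0.206), above 0 in all 9 experiments. Fcer1g and Tyrobp, the chain and the adaptor that serve alike in receptor signalling, had 0.108, and Fcer1g and Cd53, which sisters shared the most, had the lowest value at -0.0674.

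Division means and differences between sisters gave different orders of the pairs. Over division means Cd53 and Spi1 had 0.304 and Prtn3 and Spi1 0.259, but over the differences between sisters those pairs had -0.0558 and -0.0531. Csf3r and Tyrobp had 0.154 over division means and 0.183 over sister differences. The 3 members with GAGGAA in their promoter window, compared after the values were seen, had 0.223 for Prtn3 and Cd53, 0.221 for Csf3r and Cd53 and 0.196 for Prtn3 and Csf3r over division means, and -0.0797, -0.163 and -0.0500 over sister differences. All these points share libraries, depth and cultures.

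**Figure D2:**
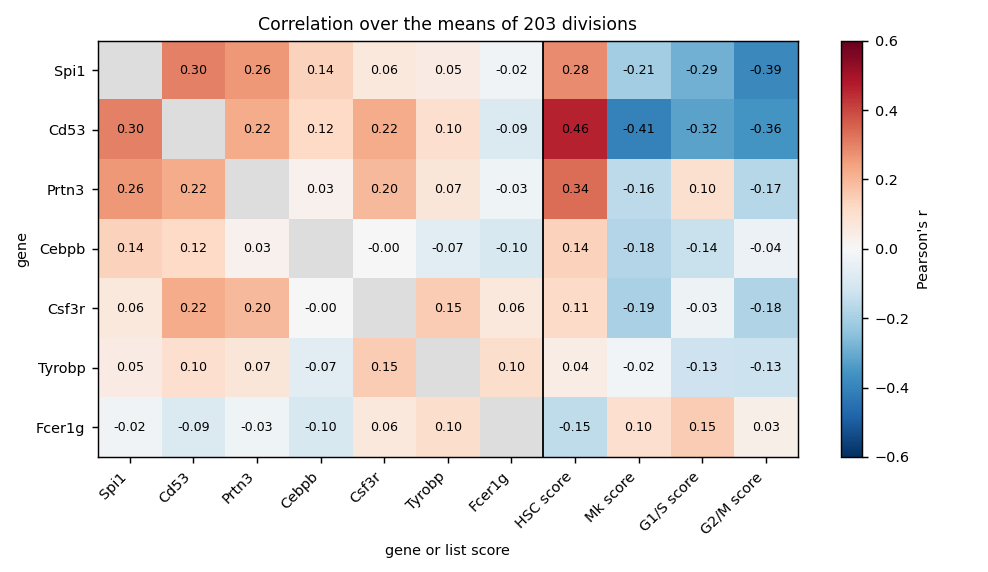
Pearson's r over the means of sister pairs (colour and printed values) between 7 myeloid genes (rows) and the same genes or scores of HSC markers, megakaryocyte (Mk) markers and cell cycle genes (columns); grey is a gene with itself. Cd53 has 0.46 with the HSC score and -0.41 with the megakaryocyte score, and Spi1 has -0.39 with the G2/M score.

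Cd53 varied with scores of HSC markers and of myeloid receptors alike. Its division means had r = 0.462 with the score of 14 HSC markers and 0.464 with that of 13 receptors and adaptors. Among single HSC genes it had 0.600 with Procr, the protein C receptor used to mark HSCs, 0.501 with Hlf, 0.304 with Mecom and 0.171 with Kit, and it had -0.406 with the score of 3 megakaryocyte markers. The 3 genes most like it of 11699 were Rbm47 (0.606), Procr (0.600) and Sgpl1 (0.570), and the least alike was Runx3 (-0.506). Spi1 had -0.388 and Cd53 -0.358 with the score of 29 G2/M genes, and the genes most like Spi1 were Limd2 (0.447), Zfp467 (0.443) and Snx10 (0.430). Fcer1g alone of the members tested had a negative value for the HSC score (-0.151). Its value for the G2/M score was small (0.0341), as was that of Cebpb (-0.0375), and for the G1/S score it had 0.151.

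Csf3r and Tyrobp had Cd33, a sialic-acid-binding receptor of myeloid cells, as their nearest gene, at 0.407 and 0.379. Csf3r came next to Hk3 (0.400), the hexokinase of myeloid cells, and Lbp (0.374), and its lowest value was with Gata2 (-0.363), a factor of HSCs and mast cells. Tyrobp was followed by Ccl9 (0.306), a chemokine, and Lsp1 (0.306), a leukocyte actin-binding protein. Prtn3 was nearest to Hmga1 (0.389), Pik3ap1 (0.352) and Lamc1 (0.352), and Cebpb to Cdk8 (0.408), Arf6 (0.364) and Csnk1g2 (0.355). For Prtn3 the overlapping gene of the opposite strand, Plppr3, had 0.339 and rank 7.

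The genes most like Fcer1g were Arhgap30 (0.343), Arhgap15 (0.335) and Cd244a (0.281), 2 of which are its neighbours on chromosome 1. Arhgap30 lies 154.6 kb and Cd244a 324.8 kb from Fcer1g on the same side. The 21 tested genes within 500 kb of Fcer1g had a median r of 0.0093, and the next highest after Arhgap30 and Cd244a was Gm9929 at 0.114. For Csf3r, Tyrobp, Cd53, Cebpb and Spi1 the highest value within 500 kb was between 0.0666 and 0.1176.

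Cebpa and Ms4a3 were counted together in a single cell. Of the 16 cells with Cebpa, 13 had Csf3r (81.2%, against 49.1% of the cells without Cebpa) and 10 had Tyrobp (62.5% against 36.03%), and all 16 had Spi1. Of the 33 cells with Ms4a3, 12 had Csf3r (36.4% against 51.2%) and 19 had Cd53 (57.6% against 77.8%). These shares pool the cells of all experiments, which differed in detection. Experiment 69 had the highest share of cells with Ms4a3 (21.9%) and the lowest with Csf3r (15.6%). In experiment 60 Ms4a3 was in 10.4% and Cd53 had its lowest share (39.6%). Experiment 73, with Ms4a3 in 11.5%, had Csf3r in 59.6% and Cd53 in 84.6%. The highest shares for Cebpa and for Csf3r (67.2%) were both in experiment 74, but experiment 69 had Cebpa in 6.25%. Cells of a few cultures are not replicates, so the shares, and the part of experiment in them, were not tested.

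All 7 members that could be tested passed the test of likeness between sisters, with the highest values for Fcer1g and Cd53, but 3 of them lost the call under an alternative. Prtn3 and Spi1 missed it with the cell cycle regressed out, and Prtn3, Csf3r and Spi1 in run 5 alone. Likeness was measured by the intraclass correlation of log2(CPM + 1) between sisters, which is 1 when sisters are equal and 0 when they are no more alike than cells of different divisions in the same culture and plate. By an F test over divisions with Benjamini-Hochberg adjustment over 11699 genes, 7 of 7 tested members passed 0.05, where 3084 genes, 26.4%, passed in all and the median gene had 0.0858. These p-values rest on divisions within cultures, so the number of experiments with a value above 0 is given too. The members were chosen with earlier results of these data known, so 7 of 7 beside 26.4% is a description.

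For Fcer1g the intraclass correlation was 0.665 (95% interval 0.580 to 0.736, adjusted p = 2.6e-25 by the F test over divisions), rank 81 of 11699, and above 0 in 9 of 9 experiments, from 0.325 to 0.936. Both sisters had a count in 61.1% of divisions, one in 17.2% (35 divisions) and neither in 21.7%, where 49.9% would have both if sisters were detected independently within experiment and plate. Where both had a count their levels differed by a median of 2.18-fold, and in the 35 one-sided divisions the daughter with a count had a median of 9.49 CPM, against 34.7 CPM for the sister means of divisions with both.

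Cd53 had an intraclass correlation of 0.620 (0.526 to 0.699, adjusted p = 3.92e-21 by the F test over divisions), higher than 98.9% of genes, and was above 0 in 9 of 9 experiments. In 66.01% of divisions both sisters had a count, in 18.2% (37 divisions) one and in 15.8% neither, against 58.1% with both under independence. Its one-sided divisions again had a lower median, 18.9 CPM against 87.55 CPM, but 16 of the 37 had at least 20 counts. The levels of Fcer1g and Cd53 were thus kept together by sisters although the correlation between these genes was near 0.

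Csf3r had 0.341 (0.212 to 0.458, adjusted p = 6.34e-06 by the F test over divisions), above 0 in 9 of 9 experiments, but 0.181 (adjusted p = 0.256) in run 5 alone. Both sisters had a count in 69 divisions (33.99%), one in 61 and neither in 73, against 25.5% with both under independence. The daughter with a count in a one-sided division had a median of 28.1 CPM, close to the 33.5 CPM of divisions with both, and 28 of the 61 one-sided divisions had at least 20 counts in that daughter. The highest of these daughters, at 364.1 CPM, was the highest cell of all for Csf3r, and its sister had no count. Strong one-sided divisions were not particular to Csf3r. At least 20 counts were found in 21 of 74 for Prtn3 (up to 103.1 CPM) and 16 of 37 for Cd53 (up to 117.6 CPM). For Spi1, present in nearly every cell, it was all 7 (up to 120.9 CPM). They were fewer for Fcer1g (8 of 35), Tyrobp (10 of 75) and Cebpb (1 of 60). The cause of one-sided counts was not tested.

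Cebpb had 0.291 (0.159 to 0.414, adjusted p = 0.000167) and Tyrobp 0.276 (0.143 to 0.400, adjusted p = 0.000395), by the same F test, above 0 in 9 and 7 of the 9 experiments. Sisters both had Cebpb in 77 divisions, one in 60 and neither in 66, and Tyrobp in 34, 75 and 94. Spi1 had 0.220 (0.0838 to 0.349, adjusted p = 0.00572), above 0 in 8 experiments, with a count in both sisters in all but the 7 divisions that had one. Prtn3 had the lowest value of the 7, 0.209 (0.0727 to 0.339, adjusted p = 0.00876), above 0 in 6 experiments. Both sisters had Prtn3 in 55.7% of divisions, one in 36.5% (74 divisions) and neither in 7.88%, close to the 54.5% with both under independence. Without experiment 76 its value was 0.127 (adjusted p = 0.147), and after regression on the cell cycle scores 0.153 (adjusted p = 0.0957), so its call ended in both. Spi1 also lost its call with the cell cycle regressed out, at 0.128 (adjusted p = 0.162).

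Below the detection minimum, Ms4a3 had a count in both sisters of 5 divisions, and in one sister of 17, where independence gives 1.68 with both. Cebpa had 1 division with both and 11 with one, where independence gives 0.313. In that 1 division the sister mean was 41.8 CPM, and the 11 one-sided daughters had a median of 8.94 CPM.

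**Figure D3:**
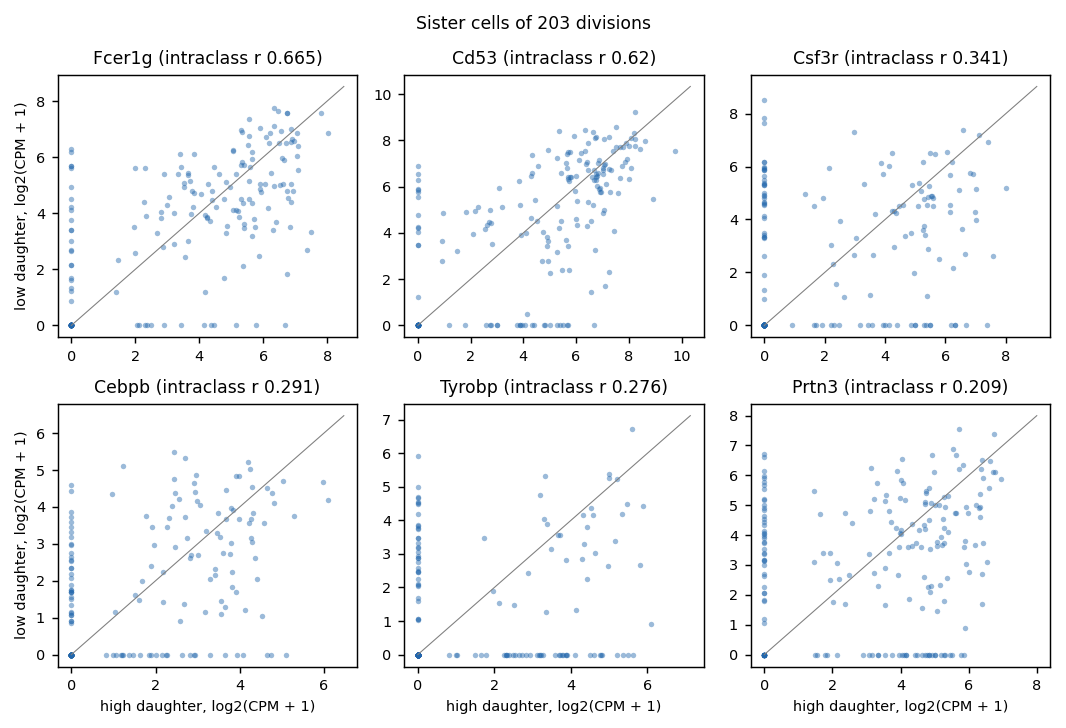
Levels in the low (y axis) and the high daughter (x axis) of each division, as log2(CPM + 1), for 6 members; each point is 1 division, the line marks equal levels, and the title gives the intraclass correlation (0.665 for Fcer1g to 0.209 for Prtn3). Points on an axis are divisions with a count in one sister alone, 35 for Fcer1g and 74 for Prtn3.

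In all but 2 divisions the sisters sat in adjacent wells, so pairs of neighbouring wells with cells of different divisions were measured the same way as a description. Adjacent and neighbouring here mean consecutive in a numbering that runs down each plate column and on to the next. The last well of a column and the first of the next thus count as neighbours without lying side by side. Over such pairs Fcer1g had a correlation of -0.0596 against 0.651 between sisters, Cd53 0.0358 against 0.605, Csf3r -0.0331 against 0.321, Tyrobp 0.0075 against 0.260, and Spi1 -0.0477 against 0.206. Prtn3 had 0.157 against 0.188 and Cebpb 0.2003 against 0.273, so in these 2 members the value for neighbours lay closest to that for sisters. The share of pairs with the same detection was lower in sisters than in neighbours for Prtn3 (63.5% against 69.1%), Cebpb (70.4% against 72.7%) and Spi1 (96.6% against 97.4%), and higher in sisters for the other 6 members, with 82.8% against 56.7% for Fcer1g. The differences between the 2 kinds of pair were not tested, and the part of well position in the sister values of Prtn3 and Cebpb was not tested.

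**Figure D4:**
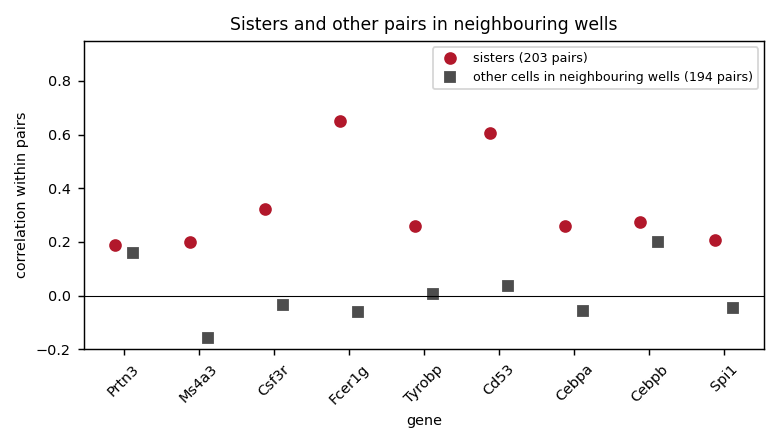
Correlation of log2(CPM + 1) within pairs (y axis) for 9 members (x axis), for sisters (circles) and for cells of different divisions in neighbouring wells, consecutive in the numbering (squares). The circle and the square lie far apart for Fcer1g (0.651 and -0.0596) and close together for Prtn3 (0.188 and 0.157).

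No member differed between daughters that received more and fewer lysosomes after adjustment over all genes. The sums of each experiment's high and low daughters entered edgeR's quasi-likelihood test, with experiment as a block, and 0 of 15854 genes passed an adjusted p of 0.05 (0%), with 658 (4.15%) at an unadjusted p under 0.05, 3 genes by DESeq2 and 0 by limma over divisions. The adjusted p was 0.999 for each of the 9 members tested by edgeR, and Irf8 could not be tested.

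Fcer1g had the smallest unadjusted p of the members. High daughters had 13.8, 31.2 and 73.8 CPM over the 9 experiments (lowest, median, highest) and low daughters 12.1, 24.9 and 56.9, and the high side was above the low in 8 of 9 experiments, with overlapping ranges. The log2 difference, high minus low, was 0.30 ± 0.14 (SE, 95% interval 0.0005 to 0.60, unadjusted p = 0.0497 and adjusted p = 0.999 by edgeR). Without experiment 72 it was 0.19 (unadjusted p = 0.122 by edgeR), and limma over divisions gave -0.02. A count was in the low daughter alone in 22 divisions and in the high daughter alone in 13, but with cells thinned to 200000 counts 65.3% of high and 64.8% of low daughters had one.

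For Prtn3 high daughters had 16.8, 23.1 and 27.99 CPM and low daughters 8.90, 19.8 and 41.9, a log2 difference of 0.20 ± 0.17 (SE, interval -0.16 to 0.56), and 0.08 without experiment 73. Csf3r had -0.05 ± 0.38 (interval -0.87 to 0.76) and no stable sign, with 0.53 in run 4 alone and -0.98 in run 5 alone. In experiments 60 and 68 its high daughters had 4.08 and 3.95 CPM and its low daughters 20.2 and 24.7, and leaving out either experiment turned the value to 0.20 and 0.23. In the other 7 experiments the high side was above the low in 6, and the ranges over experiments overlapped.

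Spi1 had 80.967, 115.38 and 141.03 CPM in high and 64.655, 95.383 and 161.68 in low daughters, a log2 difference of 0.09 ± 0.10 (interval -0.13 to 0.32). Cd53 had 28.9, 73.7 and 133.6 CPM against 20.6, 61.4 and 130.5, a difference of 0.14 ± 0.15 (interval -0.18 to 0.45). Tyrobp differed by 0.25 ± 0.29 (interval -0.36 to 0.86) and Cebpb by -0.02 ± 0.24 (interval -0.54 to 0.50). For Spi1, the narrowest of these, the interval ends at 0.32, and larger differences lie outside it. The rare Ms4a3 (0.55 ± 0.95) and Cebpa (1.19 ± 1.46) had intervals too wide to place a difference, with 10 against 7 and 7 against 4 divisions having a count in the high or the low daughter alone.

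**Figure D5:**
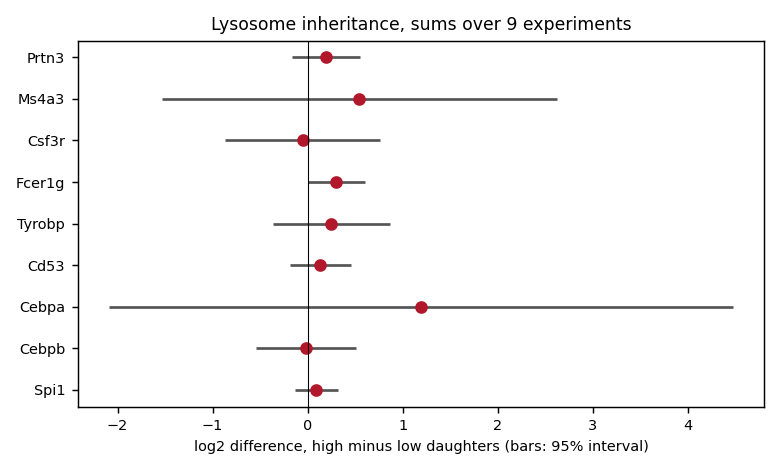
Log2 difference between high and low daughters (x axis) for 9 members, from counts summed over each of 9 experiments; points are edgeR estimates and bars 95% intervals. All intervals but that of Fcer1g (0.0005 to 0.60, before any adjustment) span 0, from Spi1 (-0.13 to 0.32) to Cebpa (-2.09 to 4.48).

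The wider myeloid lists were detected unevenly, granule genes least. Of 16 granule and antimicrobial genes, 4 were detected in at least 20% of cells, among them Srgn, the proteoglycan core of granules, in 100% and Lyz2, lysozyme, in 99.6%, and the median gene was in 2.22%. Of 23 receptors and adaptors 13 reached 20% of cells, led by Emb (99.4%) and Csf2rb (96.2%), the shared signalling chain of the GM-CSF, IL-3 and IL-5 receptors. Of 16 transcription factors 10 did, with Runx1 and Myb in 100%, and so did 12 of 14 signalling genes, with Syk and Plcg2 in 100%, and 11 of 15 genes of the phagocyte oxidase and cytoskeleton, with Coro1a and Rac2 in 100%. The kinase Syk, which binds the activated chains of Fcer1g and Tyrobp, thus had counts in every cell, including those with a count of neither chain.

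Sister sharing in those lists is given beside the 26.4% of all tested genes that passed the same F test. The median intraclass correlation of all tested genes was 0.0858. The lists too were chosen with earlier results of these data known, so their counts are descriptions. Receptors and adaptors had 11 of 13 tested genes called (median 0.287), led by Csf2rb2 (0.611), Cd33 (0.489), Cd244a (0.486) and Csf2rb (0.361). The oxidase and cytoskeleton list had 9 of 11 (median 0.277), led by Laptm5 (0.427), Lcp1 (0.425), Lsp1 (0.408) and Ncf4 (0.398). Granule genes had 3 of 4 (median 0.195), with Serpinb1a (0.313), Srgn (0.221) and Lyz2 (0.168) called and Ctsc (0.131, adjusted p = 0.0970 by the F test over divisions) not. Transcription factors had 5 of 10 (median 0.158), led by Runx1 (0.260), Etv6 (0.233), Nfe2 (0.190) and Myb (0.182), and signalling genes 4 of 12 (median 0.131), Inpp5d (0.339), Fgr (0.238), Lyn (0.210) and Stat3 (0.205). For comparison the 14 tested HSC markers had 12 called (median 0.341) and the 29 tested G2/M genes 29 (median 0.742). None of the list genes was called between high and low daughters by edgeR.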

How the data were processed

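The deposited tables hold raw counts per gene and cell, made by the authors with featureCounts from Subread 1.5.0 and SAMtools, per the submitters' processing notes. The aligner is not given in the sources used here, nor is the build. All identifiers matched GENCODE M21 (GRCm38). Other deposited values are the authors' labels of experiment, colony, plate, well and lysosome inheritance, from which 203 divisions (406 of 474 cells; 39 high and 29 low cells unpaired) were joined; how the label was set and whether cultures came from separate mice is not given. A further 171 count columns of no listed sample were not used, and 92 spike-ins stayed out of totals. All members are reported, with genes of other lists named by highest sister correlation and detection; members and lists were chosen with earlier results of these data known. Sums per experiment and label were fitted with edgeR 4.0.16 (TMM, filterByExpr, quasi-likelihood test, R 4.3.3), with DESeq2 1.42.0 as an alternative. A further alternative, limma 3.58.1, was fitted to the sister differences of single divisions without an experiment term. It thus treats divisions as replicates. SEs are the log2 difference over the root of F. Sister tests used Python 3.11.15, log2(CPM + 1) centred on experiment and plate, and genes detected in at least 20% of 406 cells, which left out Ms4a3, Cebpa and Irf8; 194 pairs of neighbouring wells held cells of different divisions. For all tests the threshold was 0.05.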

Additional observations from a re-analysis of the deposited data

Results flagged for a closer look

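In 8 of the 36 groups examined (4 for each of 9 genes), the highest or lowest of the 9 experiments stood apart from the rest. The measure was the gap to its nearest neighbour over the whole range. Chance flags about 1 group in 20 only for independent, normally distributed values. The 4 groups of a gene share cells, and Ms4a3 and Cebpa reach 0 in some experiments, so no excess over chance can be read from 8 of 36. Experiment 74 was high for Prtn3 in low daughters (41.9 CPM) and for Cebpa, at a mean of 1.97 CPM over all cells and 1.98 CPM in low daughters. Experiment 69 was high for Ms4a3 in both high (3.16 CPM) and low daughters (1.54 CPM). Experiment 72 was high for Tyrobp, at a mean of 12.1 CPM and 16.02 CPM in low daughters. Experiment 60 was low for Cd53, with a count in 39.6% of its cells. The causes were not tested.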

How the results depend on the processing

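Genes called between high and low daughters numbered 0 by edgeR and 3 by DESeq2, and 0 to 0 on leaving out each experiment. Genes called shared between sisters numbered 3084, but 1350 with cell cycle scores regressed out and 1201 in run 5 alone, which has fewer divisions, and 2646 to 3155 on leaving out each experiment; the cause of the first drop was not tested. No member was called for lysosomes in any setting. The sign of the lysosome difference turned for Prtn3 in run 4 alone (-0.01), for Csf3r in run 4 alone (0.53) and without experiment 60 (0.20) or 68 (0.23), for Fcer1g with limma over divisions (-0.02) and for Cd53 without experiment 69 (-0.00). For Cebpb it turned with DESeq2 (0.01), in run 5 alone (0.22) and without experiment 60 (0.05), 69 (0.04), 75 (0.11) or 77 (0.01). All but 6 of the alternative values of sister sharing kept their call, 3 of them given with the results. In run 5 alone Prtn3 (0.121, adjusted p = 0.397), Csf3r (0.181, adjusted p = 0.256) and Spi1 (0.187, adjusted p = 0.244) missed the threshold of the F test over divisions. The ranges on leaving out each experiment were 0.643 to 0.704 for Fcer1g, 0.583 to 0.650 for Cd53 and 0.127 to 0.252 for Prtn3, and of the lysosome difference -0.23 to 0.23 for Csf3r, -0.12 to 0.11 for Cebpb, 0.08 to 0.30 for Prtn3, 0.19 to 0.38 for Fcer1g, 0.10 to 0.40 for Tyrobp (0.40 without experiment 72, 0.10 without 76), 0.01 to 0.15 for Spi1 (0.01 without experiment 69), 0.09 to 0.94 for Ms4a3 and 0.39 to 2.09 for Cebpa. Ms4a3 entered the sister test when genes in at least 5% of cells were kept, at 0.215 (adjusted p = 0.00855). Requiring 5 counts in a cell lowered detection to 31.01% for Cebpb and 23.4% for Tyrobp. Depth limits Tyrobp, Cebpb, Ms4a3 and Cebpa most. The lysosome fits by edgeR and DESeq2 keep experiment as a block, and limma over divisions does not.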
